A study of Rattus norvegicus with 18 samples.

Results

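The genes described here make, restrain or carry out programmed cell death by apoptosis, necroptosis and pyroptosis, and they were followed in primary rat astrocytes and microglia exposed to amyloid β (Aβ) fibrils. They were chosen by name from a list of 37 symbols, without use of their values, although earlier results of these data were then known. Of the 37 symbols, 36 were rows of the count tables, out of 17307 genes in the astrocyte tables and 17327 in the microglia tables, and Mlkl was not analysed here. By role, 26 of the 36 genes promote death and 10 favour survival. Bik, with 0 to 15 counts per library, was too low to be tested, which left 25 death-promoting and 10 survival genes in every comparison.

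Apoptosis can begin at death receptors, where the adaptor FADD gathers caspase-8, or at mitochondria, where BH3-only proteins free BAX and BAK to release cytochrome c, which assembles APAF1 and caspase-9. Anti-apoptotic BCL2 proteins hold the mitochondrial route back, and inhibitor of apoptosis proteins (IAPs) and c-FLIP, the product of Cflar, act on caspases and on the complexes below the receptors. Where caspase-8 is inactive, the kinases RIPK1 and RIPK3 can pass the signal to MLKL, which ruptures the membrane (necroptosis). ZBP1 is another route into RIPK3, and gasdermin D forms the pores of pyroptosis. In glia many of these genes are also targets of inflammatory signalling.

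Astrocytes and microglia were isolated from the cortex of Sprague-Dawley rat pups on postnatal day 2, grown in mixed glial flasks and separated by shaking. All wells were moved to serum-free medium for 3 h, so the control cells were serum-deprived as well. They then received Aβ42 fibrils, Aβ40 fibrils or no fibrils for 24 h, with each fibril at 25 µM and 3 replicates per group, giving 9 libraries of each cell type and 18 in all. Poly(A) RNA was sequenced, and the deposited values are counts of reads per gene. The labels do not say whether replicates were separate cultures or litters, so the p-values measure the spread between these libraries, which may be technical.

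Counts on genes ranged from 3674043 to 19013919 per astrocyte library and from 2271834 to 22274367 per microglia library. At these depths 3 counts stood for 0.160 to 0.835 and for 0.130 to 1.38 CPM. CPM are counts per 1000000 counts on the genes tested, and are given after scaling between libraries. Control astrocyte replicate 2 and Aβ42 microglia replicate 1 stood apart. In control astrocyte replicate 2, 34.2% of reads lay on no gene or on several genes against 26.0% to 28.9% in the other 8 astrocyte libraries. Aβ42 microglia replicate 1 held 2613723 counts, while replicates 2 and 3 held 22274367 and 17687416 and the Aβ40 microglia 2271834 to 4425805. All 8 microglial markers and all 8 astrocyte markers were present in their own cells, at summed levels of 5053 to 5817 CPM in control microglia and 8239 to 9995 CPM in control astrocytes. Both sums were lower with fibrils, at 1337 to 1915 CPM in treated microglia and 5400 to 6344 CPM in treated astrocytes, but the members did not all move with the sum. Of the 8 microglial markers in microglia, 6 fell with Aβ42 and 7 with Aβ40, while Itgam rose with each, and Tmem119 was not called with Aβ42. Of the 8 astrocyte markers in astrocytes, 5 fell with Aβ42 and 4 with Aβ40, while Slc1a2 and Aldh1l1 rose with each and Aqp4 with Aβ40. Of all tested genes, 26.6% were called lower and 27.1% higher in microglia with Aβ42, and 21.4% and 19.6% with Aβ40. In astrocytes the shares were 20.4% lower and 16.5% higher with Aβ42, and 18.4% and 14.9% with Aβ40. The microglial markers in the astrocyte cultures summed to 238 to 279 CPM in the control libraries and to 14.2 to 23.1 CPM in the treated ones, and all 8 fell. The 8 astrocyte markers summed to 147 to 223 CPM in microglia libraries. The 8 oligodendrocyte lineage markers summed to 1272 to 2573 CPM in astrocyte libraries and 1963 to 2833 CPM in microglia libraries. The 4 fibroblast markers summed to 55.1 to 67.4 CPM in control microglia and 118 to 161 CPM in treated microglia. In astrocyte libraries they summed to 62.2 to 180 CPM. Of the 4 endothelial markers Cldn5 was at 0 in all 18 libraries, but the others were not. The 4 summed to 159 to 172 CPM in control microglia and 34.6 to 102.5 CPM in treated microglia. In astrocyte libraries they summed to 3.52 to 7.42 CPM. In such bulk samples fewer cells of a type and less RNA per cell cannot be told apart.

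Levels above and below are scaled CPM, that is CPM after scaling between libraries, and changes are log2 fold changes ± standard error. A gene was called when its p-value from edgeR's quasi-likelihood test, adjusted over all genes tested, was under 0.05. Both fibril groups of a cell type were compared with the same control libraries, so the 2 comparisons are not independent.

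In astrocytes 16 of the 35 tested genes rose and 2 fell with Aβ42 fibrils, where 16.5% of all 11690 tested genes were called higher and 20.4% lower. With Aβ40 fibrils 13 rose and 2 fell, against 14.9% and 18.4% of all genes. At 2-fold or more 9 rose and 1 fell with each fibril, against 8% and 11.8% of all genes with Aβ42 and 7.37% and 10.4% with Aβ40, and at 5-fold or more 4 rose and 1 fell, against 3.03% and 3.24%, and 2.82% and 2.6%. Death-promoting genes, which were 25 of the 35 tested, made up 13 of the 16 higher calls with Aβ42 and 10 of the 13 with Aβ40. Both genes that fell, Hrk and Bmf, were death-promoting too. Among survival genes only Birc2, Birc3 and Cflar were called, all higher with each fibril, and 7 of 10 were not called. The median change of the 25 death-promoting genes was 0.54 with Aβ42 and 0.44 with Aβ40, that of the 10 survival genes 0.32 and 0.35, and that of all tested genes -0.0047 and 0.0017. Without control replicate 2, 20 genes rose and 2 fell with Aβ42, and 18 rose and 2 fell with Aβ40. Without Aβ42 replicate 2, 10 rose with Aβ42, and Bmf accounts for the fall to 1 lower call without control replicate 1 or any 1 treated library. The share of all genes called in these refits is not given here, so these counts are not set against it.

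In microglia most survival genes rose. With Aβ42 fibrils 9 of 10 survival genes rose and 1, Bcl2, fell, whereas 13 of 25 death-promoting genes rose, 7 fell and 5 were not called. With Aβ40 fibrils 8 survival genes rose and Bcl2 fell, and 11 death-promoting genes rose and 7 fell. Together 22 genes rose and 8 fell with Aβ42, where 27.1% and 26.6% of all 10837 tested genes were called higher and lower, and 19 rose and 8 fell with Aβ40, against 19.6% and 21.4%. At 2-fold or more 8 rose and 3 fell with Aβ42, against 11.4% and 9.93% of all genes, and 7 rose and 2 fell with Aβ40, against 8.95% and 8.63%. At 5-fold or more 4 rose and 2 fell with each, against 3.69% and 2.57%, and 3.36% and 2.47%. The median change of survival genes was 0.83 with Aβ42 and 0.91 with Aβ40, that of death-promoting genes 0.41 and 0.075, and that of all tested genes 0.0096 and 0.0054. The Aβ40 median of death-promoting genes ran from 0.0042 without Aβ40 replicate 3 to 0.22 without Aβ40 replicate 1 (0.21 without control replicate 2). The Aβ40 count of genes that fell ran from 5 without control replicate 1 or 3 or Aβ40 replicate 3 to 10 without Aβ42 replicate 1. For these refits the share of all genes called is not given here. In the plot of every gene by library the treated microglia show an upper block of higher survival genes that the treated astrocytes show for 3 genes. At 2-fold or more, however, 3 of the 10 survival genes rose in each cell type with each fibril. Of the other survival calls in microglia, all but the fall of Bcl2 with Aβ42 were under 2-fold. Libraries also spread more in astrocytes, with a common dispersion in edgeR of 0.0281 against 0.0163 in microglia.

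**Figure D1:**
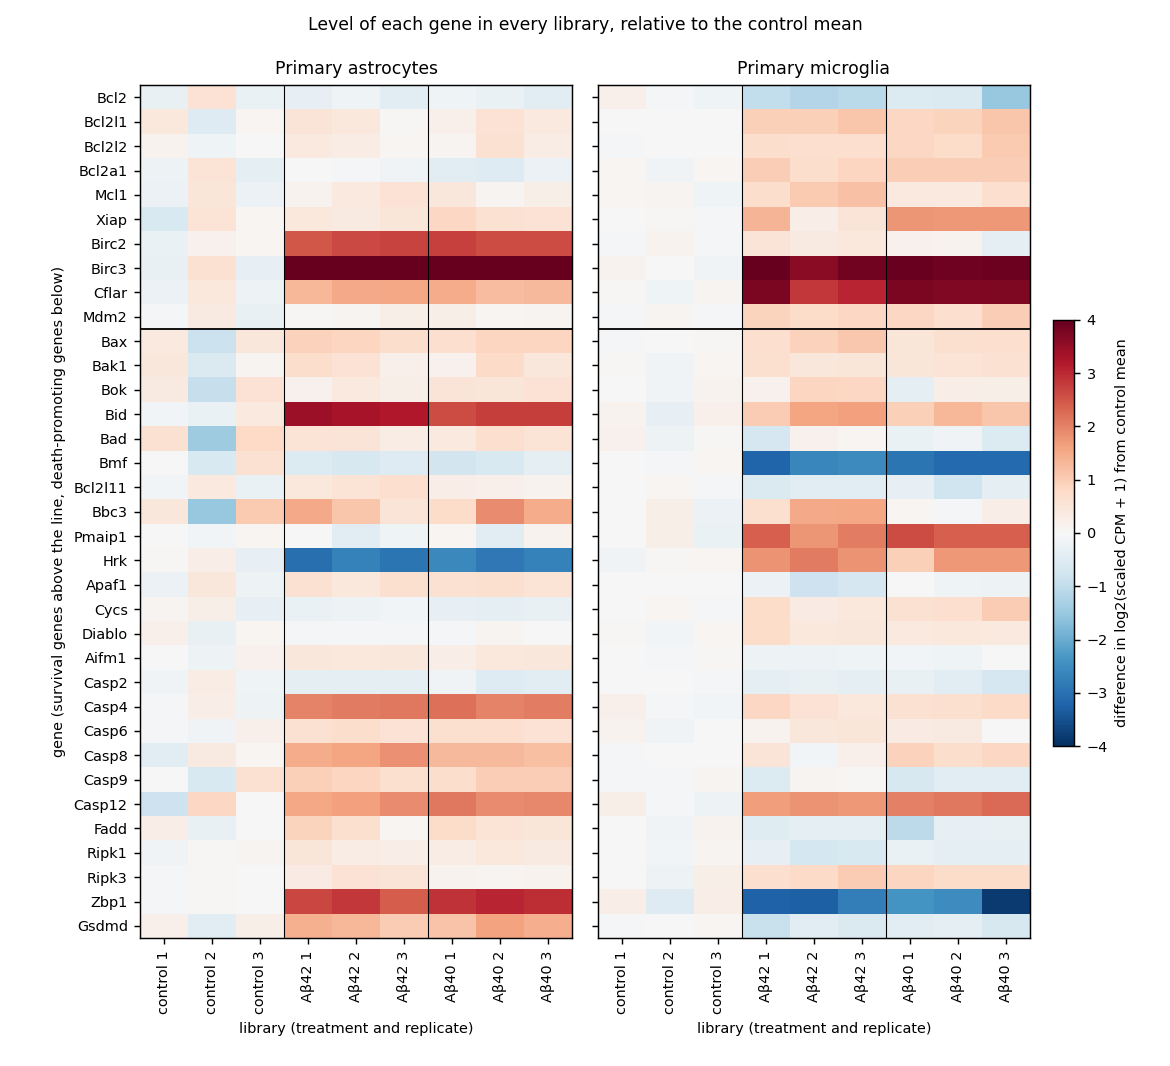
Difference in log2(scaled CPM + 1) of each of the 35 tested genes (rows) from its control mean, in each library (columns) of astrocytes and microglia; red is higher and blue lower than control, and colours stop at 4 in either direction. Birc3 is deep red in all 12 treated libraries, Zbp1 is red in treated astrocytes and blue in treated microglia, and Hrk the reverse.

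Of the survival genes, the largest change in both cell types was that of Birc3, which encodes cIAP2, a ubiquitin ligase that acts on RIPK1. Birc3 measured 8.35, 16.5 and 8.02 in the control libraries, 412, 424 and 434 with Aβ42 and 431, 397 and 409 with Aβ40 in astrocytes. Its microglial levels were 22, 19.7 and 17.8 in the control libraries, 343, 254 and 299.99 with Aβ42 and 320.2, 308 and 317 with Aβ40. Every treated library lay above every control library of its cell type. The change in astrocytes was 5.32 ± 0.25 (adjusted p = 5.45e-08) with Aβ42 and 5.28 ± 0.25 (adjusted p = 6.6e-08) with Aβ40, and in microglia 3.9 ± 0.14 (adjusted p = 1.04e-09) and 3.98 ± 0.14 (adjusted p = 1.26e-09).

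Birc2 encodes the related ligase cIAP1. It measured 50.4, 68 and 64.4 in the control libraries, 340.5, 386 and 399 with Aβ42 and 404, 376 and 377 with Aβ40 in astrocytes. In microglia its levels were 58.1, 67 and 57.8 in the control libraries, 86.8, 78.3 and 81.9 with Aβ42 and 68.5, 67.8 and 46 with Aβ40. The astrocyte groups were far apart, while in microglia only the Aβ42 libraries were clear of the control libraries and Aβ40 replicate 3 was the lowest of all 9. The change was 2.62 ± 0.14 (adjusted p = 1.55e-07) and 2.66 ± 0.14 (adjusted p = 1.52e-07) in astrocytes, and 0.43 ± 0.14 (adjusted p = 0.021) and 0.02 ± 0.14 (adjusted p = 0.939) in microglia for Aβ42 and Aβ40. Without microglia control replicate 1, control replicate 3 or Aβ42 replicate 3 the microglial Aβ42 change, 0.41, 0.41 and 0.43, was not called. Birc2 and Birc3 are alike in sequence and neighbours in the genome, and the RefSeq table gives Birc2 as a synonym of Birc3, so the split of reads between them is uncertain.

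Cflar encodes c-FLIP, which binds FADD and caspase-8 and keeps caspase-8 from full activation. It measured 41.2, 65.8 and 42.6 in the control libraries, 123, 141 and 144 with Aβ42 and 139, 115 and 121 with Aβ40 in astrocytes. In microglia its levels were 30.9, 26.5 and 32 in the control libraries, 419, 217 and 249.98 with Aβ42 and 413, 402 and 406 with Aβ40. No treated library reached down to a control library, and among the Aβ42 microglia replicate 1 was the highest, at the level of the Aβ40 libraries. The rise was 1.45 ± 0.18 (adjusted p = 0.000102) and 1.33 ± 0.18 (adjusted p = 0.00021) in astrocytes and 3.29 ± 0.22 (adjusted p = 1.31e-07) and 3.77 ± 0.22 (adjusted p = 5.93e-08) in microglia. It was larger in microglia than in astrocytes, by 1.83 ± 0.29 (adjusted p = 5.75e-05) with Aβ42 and 2.42 ± 0.29 (adjusted p = 2.86e-06) with Aβ40.

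Xiap encodes the IAP that blocks caspases directly. In microglia Xiap measured 58.4, 59.1 and 54.1 in the control libraries, 149, 69.2 and 82.6 with Aβ42 and 197, 191 and 191 with Aβ40. The Aβ40 libraries lay well above all others, and of the Aβ42 libraries replicate 1 stood between the groups while replicates 2 and 3 were closer to control. The change was 0.76 ± 0.22 (adjusted p = 0.0118) with Aβ42 and 1.75 ± 0.22 (adjusted p = 4.69e-05) with Aβ40. Without Aβ42 replicate 1 the Aβ42 change was 0.40 and still called. In astrocytes, at 6.96 to 20.5 CPM, Xiap was not called, with 0.36 ± 0.24 and 0.63 ± 0.23.

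Of the 5 anti-apoptotic BCL2 genes 4 rose and 1 fell in microglia with both fibrils, against 27.1% higher and 26.6% lower of all genes with Aβ42 and 19.6% and 21.4% with Aβ40. None was called in astrocytes. Bcl2l1, which encodes BCL-xL, rose in microglia from 303, 311 and 311 in the control libraries to 591, 598 and 664 with Aβ42 and 545, 573 and 669.7 with Aβ40. Bcl2 itself was low and fell, from 6.83, 5.6 and 5.03 to 2.4, 2.04 and 2.22 and 3.62, 3.58 and 1.38. The treated libraries of both genes lay clear of the control libraries. The changes were 1.0 ± 0.10 (adjusted p = 6.62e-06) and 0.95 ± 0.10 (adjusted p = 1.37e-05) for Bcl2l1, and -1.45 ± 0.24 (adjusted p = 0.000348) and -0.92 ± 0.29 (adjusted p = 0.023) for Bcl2. The Aβ40 change of Bcl2 was -0.75 without control replicate 1 and -0.71 without Aβ40 replicate 3, and was not called in either case.

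Mcl1, whose short-lived product guards mitochondria against BIM and NOXA, rose in microglia by 1.0 ± 0.14 with Aβ42 and 0.48 ± 0.14 with Aβ40. The latter was not called without control replicate 3 (0.42) or Aβ40 replicate 3 (0.38). Bcl2a1, which encodes BFL-1/A1, rose by 0.84 ± 0.11 and 0.98 ± 0.11, and Bcl2l2, which encodes BCL-w, by 0.69 ± 0.10 and 0.88 ± 0.10. Mdm2, a ubiquitin ligase gene, rose by 0.82 ± 0.11 and 0.83 ± 0.11. In astrocytes the changes of these 4 genes ran from -0.47 to 0.36.

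Of the 27 promoters that RefSeq's GRCr8 table gave for the listed genes, 4 held either of 2 motifs searched on both strands over 300 bases, from 250 before the listed gene start. The motifs were GGNNTTTCC, a loose form of the NF-κB element, and GAAANNGAA, the core of the interferon-stimulated response element (ISRE). The first was in 1 and the second in 3 of the 27, against 6.03% and 9.5% of all 27457 promoters. Promoters of Birc3, Zbp1, Casp4, Gsdmd, Bax, Bok, Bik, Bbc3, Xiap and Casp8 were not found by name and so were not searched. These 4 promoters are shown because they hold the matches. Of their genes, Cflar and Casp12 were called higher in every fibril comparison with control. Mcl1 was called higher in microglia only, and Ripk1 higher in astrocytes and lower in microglia. Capitals mark the match, which in each lies on the strand opposite to the printed one and so reads as the reverse complement. Counted from 0 at the gene start, the ISRE core covers bases 25 to 33 in Cflar, -37 to -29 in Casp12 and -160 to -152 in Ripk1, and the NF-κB form covers -99 to -91 in Mcl1. Cflar lies at chr9:67679299-67679598, Casp12 at chr8:10926938-10927237, Ripk1 at chr17:31077118-31077417 and Mcl1 at chr2:185907918-185908217, on GRCr8, Ripk1 on the minus strand and the others on the plus strand. A match is a description of these letters and not evidence of binding.
Cflar: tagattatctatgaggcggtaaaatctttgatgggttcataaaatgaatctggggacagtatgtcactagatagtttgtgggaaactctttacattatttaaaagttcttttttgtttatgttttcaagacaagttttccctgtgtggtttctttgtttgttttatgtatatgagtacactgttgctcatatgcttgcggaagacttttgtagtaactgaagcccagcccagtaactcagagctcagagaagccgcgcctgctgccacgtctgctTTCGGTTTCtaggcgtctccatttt
Casp12: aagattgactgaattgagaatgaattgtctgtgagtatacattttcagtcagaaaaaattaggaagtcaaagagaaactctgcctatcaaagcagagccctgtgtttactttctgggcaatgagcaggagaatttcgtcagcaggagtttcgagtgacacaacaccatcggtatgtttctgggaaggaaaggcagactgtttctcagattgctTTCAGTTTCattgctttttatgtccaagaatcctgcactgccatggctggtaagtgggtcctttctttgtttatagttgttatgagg
Ripk1: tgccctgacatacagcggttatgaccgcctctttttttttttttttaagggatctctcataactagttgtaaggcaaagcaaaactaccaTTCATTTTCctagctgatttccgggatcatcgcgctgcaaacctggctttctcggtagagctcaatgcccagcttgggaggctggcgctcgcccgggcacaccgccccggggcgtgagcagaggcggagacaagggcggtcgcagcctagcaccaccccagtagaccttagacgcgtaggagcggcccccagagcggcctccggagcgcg
Mcl1: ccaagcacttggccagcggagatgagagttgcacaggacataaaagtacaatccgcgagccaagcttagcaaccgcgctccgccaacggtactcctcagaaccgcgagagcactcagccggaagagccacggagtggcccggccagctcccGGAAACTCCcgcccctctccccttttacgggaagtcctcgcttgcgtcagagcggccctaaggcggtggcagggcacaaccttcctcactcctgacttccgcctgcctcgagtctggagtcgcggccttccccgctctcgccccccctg

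Among the death-promoting genes at mitochondria, Bid rose most in astrocytes. Its product is cleaved by caspase-8 and carries the receptor signal to mitochondria. Bid measured 5.01, 4.31 and 7.39 in the control libraries, 67.9, 62 and 58.8 with Aβ42 and 38.5, 43.1 and 42.6 with Aβ40 in astrocytes. In microglia it measured 51, 36.5 and 53.1 in the control libraries, 93.6, 140.2 and 147 with Aβ42 and 91.5, 117 and 100.2 with Aβ40. The treated libraries were above the control libraries in both cell types, and in astrocytes the Aβ42 libraries were also all above the Aβ40 libraries. Bid rose by 3.4 ± 0.19 (adjusted p = 2.45e-07) and 2.8 ± 0.19 (adjusted p = 1.11e-06) in astrocytes and by 1.45 ± 0.18 (adjusted p = 3.71e-05) and 1.13 ± 0.19 (adjusted p = 0.000414) in microglia. The Aβ42 against Aβ40 difference in astrocytes, 0.6 ± 0.16, was not called (adjusted p = 0.262), although it was called without control replicate 2, with or without Aβ42 replicate 3, by DESeq2 and in the fit of these groups alone.

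Hrk, a BH3-only gene known from neurons deprived of trophic support, changed in opposite directions. It measured 20.9, 24.2 and 15.9 in the control libraries, 1.58, 2.22 and 1.8 with Aβ42 and 2.49, 1.93 and 2.26 with Aβ40 in astrocytes. The microglial values were 1.06, 1.35 and 1.37 in the control libraries, 6.8, 8.49 and 6.84 with Aβ42 and 3.38, 6.49 and 6.44 with Aβ40. The control astrocytes were all above the treated astrocytes, and the control microglia all below the treated microglia. The changes were -3.43 ± 0.23 (adjusted p = 9.03e-07) and -3.18 ± 0.22 (adjusted p = 1.21e-06) in astrocytes, and 2.59 ± 0.28 (adjusted p = 1.07e-05) and 2.08 ± 0.34 (adjusted p = 0.000386) in microglia, where the control levels rest on 7 to 9 counts per library. The 4 neuronal markers summed to 38.8 to 61.2 CPM in control astrocytes and 23.2 to 33.2 CPM in treated ones, and to 151 to 168 CPM in control and 195 to 226 CPM in treated microglia. With each fibril 3 of the 4 were called lower in astrocytes and 1 higher in microglia. Of all genes, 20.4% with Aβ42 and 18.4% with Aβ40 were lower in astrocytes, and 27.1% and 19.6% higher in microglia. The part of the neuronal markers in the Hrk values was not tested.

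Pmaip1 (NOXA, which binds MCL1) was near the limit of detection in astrocytes, at 0.910 to 1.86 CPM, and was not called there. In microglia it measured 4.83, 5.79 and 3.81 in the control libraries, 29.2, 18.8 and 23 with Aβ42 and 34, 29.3 and 29.4 with Aβ40. All 6 treated libraries were above the control libraries, with the Aβ40 libraries and Aβ42 replicate 1 highest. The rise was 2.24 ± 0.21 (adjusted p = 2.29e-06) and 2.7 ± 0.21 (adjusted p = 7.14e-07).

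Bmf, whose product is released from the cytoskeleton in stressed or detached cells, fell. In microglia it measured 65.7, 65.1 and 70.5 in the control libraries, 6.4, 10.3 and 10.7 with Aβ42 and 7.96, 6.93 and 6.89 with Aβ40. The drop was shared by all 6 treated libraries, at -2.77 ± 0.15 (adjusted p = 1.82e-08) and -3.2 ± 0.17 (adjusted p = 2.58e-08). In astrocytes its control libraries, at 11.4, 7.18 and 18.3, overlapped the treated ones at 6.55 to 8.63, and its changes of -0.81 ± 0.28 and -0.79 ± 0.27 rested on the high control replicate 3: without it they were -0.31 and -0.29. Neither was called when any single library other than control replicate 2 was left out.

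Bbc3 (PUMA) set the fibrils apart in microglia, at 10.4, 12.2 and 8.54 in the control libraries, 16.4, 31.1 and 31.9 with Aβ42 and 10.9, 9.84 and 12.4 with Aβ40. The Aβ42 libraries lay above the control libraries and the Aβ40 libraries did not. Its change was 1.45 ± 0.22 (adjusted p = 0.000163) with Aβ42 and 0.08 ± 0.27 (adjusted p = 0.851) with Aβ40. Bcl2l11 (BIM) fell in microglia, at -0.47 ± 0.13 and -0.51 ± 0.14, and without Aβ40 replicate 2 the latter was -0.36 and not called. In astrocytes Bcl2l11 rose with Aβ42, 0.54 ± 0.18, a call lost without control replicate 1 or 3, Aβ42 replicate 2 or 3 or Aβ40 replicate 3, at 0.39 to 0.55. Bad was called in neither cell type. It was one of the genes in which control astrocyte replicate 2 stood lowest, at 16.3 CPM against 68.7 and 78.9 CPM in replicates 1 and 3.

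The pore-forming effectors rose in microglia. Bax changed by 0.91 ± 0.12 and 0.61 ± 0.12 and Bak1 by 0.52 ± 0.10 and 0.55 ± 0.11, while Bok rose with Aβ42, 0.91 ± 0.23, and not with Aβ40, 0.04 ± 0.31. None of the 3 was called in astrocytes, where Bax was at 0.72 ± 0.27 and 0.69 ± 0.27 and control replicate 2 was lowest for all of them. Cycs (cytochrome c) and Diablo (SMAC, which relieves IAP inhibition) rose in microglia, by 0.5 ± 0.13 and 0.78 ± 0.13 and by 0.54 ± 0.11 and 0.4 ± 0.11. Without Aβ40 replicate 2 the Aβ40 change of Diablo, 0.39, was not called.

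Apaf1, the scaffold of the apoptosome, rose in astrocytes by 0.55 ± 0.18 and 0.58 ± 0.18 and fell in microglia with Aβ42, -0.59 ± 0.14. Aifm1, which encodes the mitochondrial flavoprotein AIF, rose in astrocytes with Aβ42, 0.44 ± 0.13. The astrocyte calls of Apaf1 with Aβ42 were lost without any single library other than control replicate 2, at 0.42 to 0.62, with Aβ40 they were lost without control replicate 1 or 3 or any Aβ40 replicate, at 0.45 to 0.61, and that of Aifm1 was lost without any Aβ42 replicate, at 0.43 to 0.45.

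**Figure D2:**
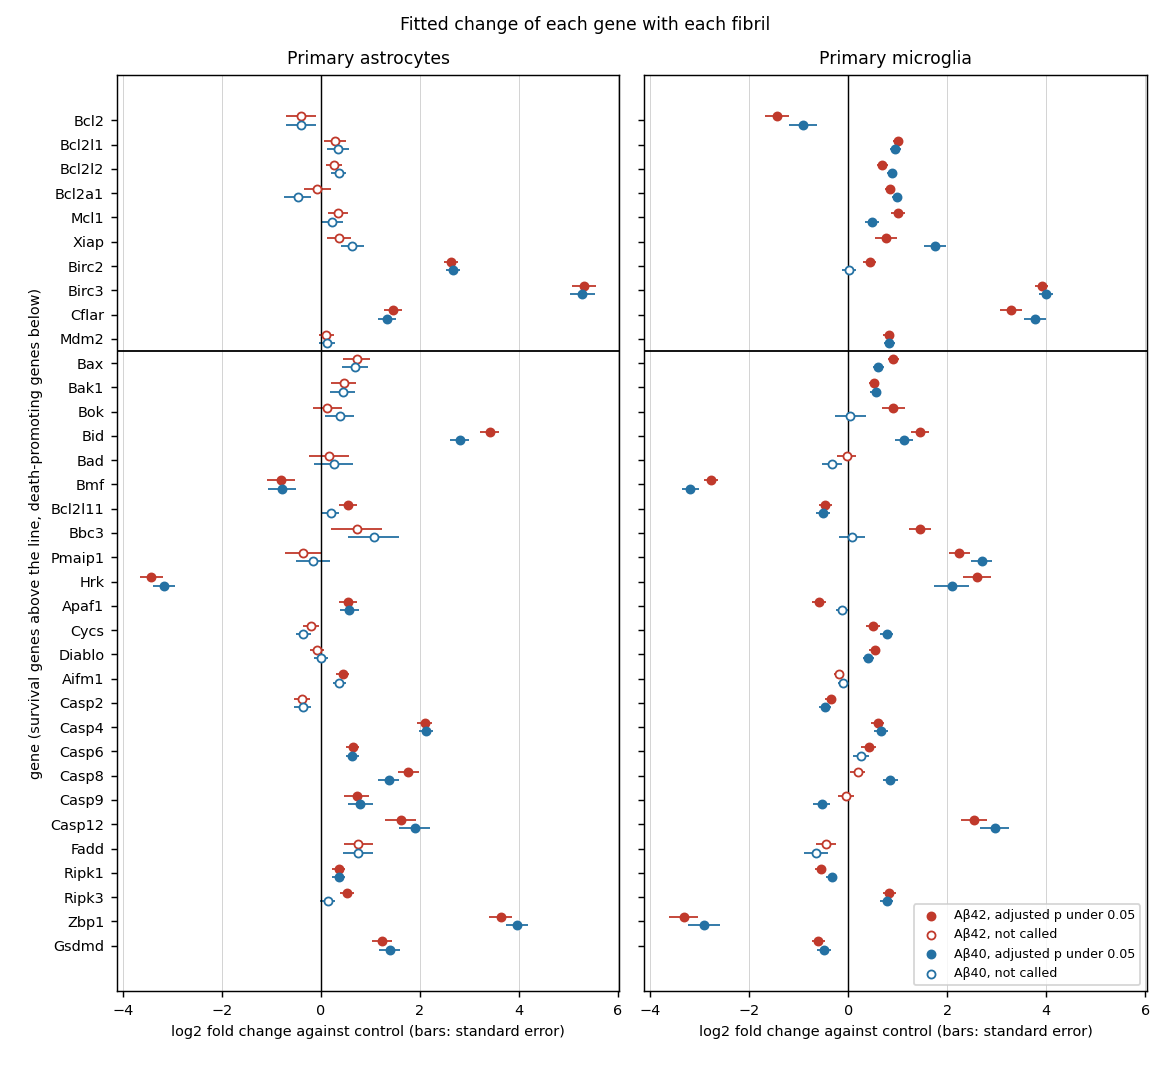
Log2 fold change against control (horizontal axis, bars are standard errors) of each gene with Aβ42 (red) and Aβ40 (blue) fibrils; filled points have an adjusted p under 0.05. In microglia 9 of 10 survival genes have filled points to the right with Aβ42, and in astrocytes 3.

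Of the 6 listed caspases 5 were called higher in astrocytes with each fibril, against 16.5% of all genes with Aβ42 and 14.9% with Aβ40, and Casp2 was not called. The largest change was in Casp4, the inflammatory caspase that senses intracellular lipopolysaccharide and cleaves gasdermin D. It measured 30.3, 37.3 and 26.7 in the control libraries, 127, 136 and 137 with Aβ42 and 148, 127 and 132 with Aβ40 in astrocytes. In microglia it measured 50.8, 41.1 and 40.3 in the control libraries, 78, 65.3 and 59.4 with Aβ42 and 67.3, 68.7 and 74.9 with Aβ40. The groups were apart in both cell types, more widely in astrocytes. The rise was 2.09 ± 0.15 (adjusted p = 1.17e-06) and 2.12 ± 0.15 (adjusted p = 1.22e-06) in astrocytes, against 0.59 ± 0.13 (adjusted p = 0.00261) and 0.66 ± 0.14 (adjusted p = 0.00188) in microglia.

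Casp12, a caspase of the endoplasmic reticulum in rodents, rose in both cell types. It measured 8.07, 27.5 and 14.9 in the control libraries, 46.1, 49.4 and 59 with Aβ42 and 68.9, 58.7 and 59.4 with Aβ40 in astrocytes. In microglia, where it was scarce, it measured 1.18, 0.773 and 0.61 in the control libraries, 4.8, 5.37 and 5.13 with Aβ42 and 6.52, 6.93 and 7.81 with Aβ40, with 4 to 10 counts in the control libraries. No treated library overlapped a control library, although the control astrocytes were spread over more than 3-fold. Casp12 changed by 1.61 ± 0.31 (adjusted p = 0.00186) and 1.89 ± 0.31 (adjusted p = 0.000741) in astrocytes and by 2.53 ± 0.26 (adjusted p = 6.86e-06) and 2.96 ± 0.29 (adjusted p = 4.65e-06) in microglia. Casp4 and Casp12 are neighbouring, related genes, so reads that match both could have been split between them.

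Casp8, the initiator caspase of death receptors and the brake on necroptosis, measured 3.06, 5.98 and 4.85 in the control libraries, 14.3, 15.5 and 18.6 with Aβ42 and 12.5, 12.5 and 11.6 with Aβ40 in astrocytes. Levels in microglia were 39, 40.6 and 40.1 in the control libraries, 57.6, 37 and 45.6 with Aβ42 and 76.7, 66.2 and 72.2 with Aβ40. All treated astrocytes exceeded the control astrocytes, whereas in microglia the Aβ40 libraries were clear of control and the Aβ42 libraries lay on both sides of it. The change was 1.76 ± 0.21 (adjusted p = 6.69e-05) and 1.37 ± 0.21 (adjusted p = 0.000479) in astrocytes and 0.19 ± 0.15 (adjusted p = 0.301) and 0.85 ± 0.15 (adjusted p = 0.000652) in microglia. Before treatment microglia held more Casp8 than astrocytes by 3.33 ± 0.20. The sum of microglial markers in the astrocyte cultures was lower with fibrils, and its part in the Casp8 values was not tested.

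Smaller changes were seen in the other caspases. Casp6 rose in astrocytes by 0.64 ± 0.13 and 0.63 ± 0.13, and in microglia with Aβ42 by 0.41 ± 0.15, a call lost without control replicate 2 or 3 or Aβ42 replicate 2 or 3, at 0.36 to 0.41. Casp9, the apoptosome's caspase, rose in astrocytes by 0.72 ± 0.26 and 0.8 ± 0.26 and fell in microglia with Aβ40, -0.54 ± 0.17. These 3 calls were lost without any of 7, 4 and 6 of the 9 libraries, with changes of 0.66 to 0.81, 0.75 to 0.81 and -0.60 to -0.46. Casp2 fell in microglia, at -0.36 ± 0.11 and -0.47 ± 0.12, the first not called without control replicate 1 or 2 or Aβ42 replicate 3, at about -0.33.

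Of the adaptors and the necroptosis and pyroptosis genes, Zbp1 showed the widest contrast between the cell types. It measured 0.835, 0.957 and 0.844 in the control libraries, 11, 12.3 and 9.13 with Aβ42 and 13, 14.5 and 13.4 with Aβ40 in astrocytes, where the control values rest on 3, 4 and 12 counts. The microglia held 55.4, 31.9 and 55.2 in the control libraries, 4.0, 3.94 and 5.87 with Aβ42 and 7.96, 7.16 and 2.3 with Aβ40. All treated astrocytes were above, and all treated microglia below, their own control libraries. The change was 3.63 ± 0.24 (adjusted p = 6.52e-07) and 3.96 ± 0.23 (adjusted p = 3.28e-07) in astrocytes and -3.33 ± 0.29 (adjusted p = 1.4e-06) and -2.91 ± 0.32 (adjusted p = 1.33e-05) in microglia. The responses of the cell types differed by -6.95 ± 0.45 (adjusted p = 9.65e-10) for Aβ42 and -6.9 ± 0.46 (adjusted p = 1.89e-09) for Aβ40. The sum of microglial markers was lower with fibrils in both cultures, though Itgam rose in microglia, and its part in the Zbp1 values was not tested.

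Gsdmd, which encodes gasdermin D, also went opposite ways. It measured 45.9, 28.5 and 47.2 in the control libraries, 107, 99.9 and 81.5 with Aβ42 and 87.6, 122 and 109.6 with Aβ40 in astrocytes. Microglia had 43.1, 44.2 and 46.8 in the control libraries, 23.6, 32.6 and 29.5 with Aβ42 and 32.3, 33.8 and 28.5 with Aβ40. Again no treated library overlapped control in either cell type. The rise in astrocytes was 1.24 ± 0.21 (adjusted p = 0.000749) and 1.38 ± 0.21 (adjusted p = 0.000384), and the fall in microglia -0.61 ± 0.13 (adjusted p = 0.0019) and -0.49 ± 0.14 (adjusted p = 0.0123). The last of these, -0.44 without control replicate 3, was then not called.

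Ripk1, the kinase at the branch between survival, apoptosis and necroptosis, was 151, 143 and 167 in control microglia, 122, 94.7 and 99.7 with Aβ42 and 126, 119.7 and 118 with Aβ40. All treated libraries were below control, at -0.56 ± 0.12 (adjusted p = 0.00156) and -0.34 ± 0.12 (adjusted p = 0.0356). The latter was lost without control replicate 1 or 3 or any Aβ40 replicate, at -0.37 to -0.25. In astrocytes Ripk1 rose by 0.35 ± 0.12 (adjusted p = 0.0455) and 0.36 ± 0.12 (adjusted p = 0.0478), and each of these calls was lost when control replicate 1 or any 1 treated library was left out, at 0.29 to 0.39. Ripk3, the kinase that phosphorylates MLKL, rose in microglia by 0.83 ± 0.13 and 0.78 ± 0.13, and in astrocytes with Aβ42, 0.53 ± 0.15, a call lost without Aβ42 replicate 2 (0.48) or 3 (0.51). Fadd was below 10 CPM in every library and was called in neither cell type.

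**Figure D3:**
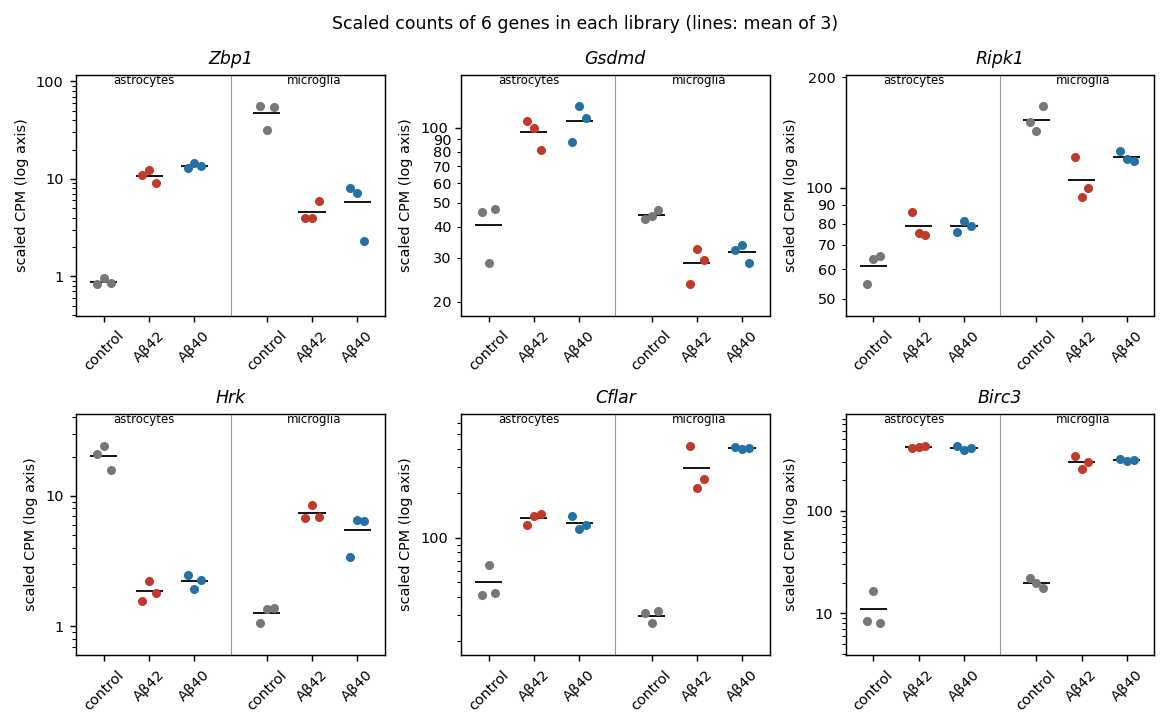
Scaled CPM (log axis) of 6 genes in every library of astrocytes (left of each panel) and microglia (right); points are libraries and lines are means of 3. Zbp1 and Gsdmd of treated cells lie above control in astrocytes and below it in microglia, Hrk lies the other way, and Cflar and Birc3 lie above control in both.

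The responses of the cell types were compared directly in a fit of all 18 libraries. The response to Aβ42 was larger, in the signed sense, in microglia for 8 of 35 genes and smaller for 14, where 19.3% of the 11581 genes tested were larger, 17.9% smaller and 37.3% either. With Aβ40 it was larger for 9 and smaller for 13, against 16%, 16.5% and 32.5% of all genes. Of the 10 survival genes 4 had larger and 3 smaller responses in microglia with Aβ42, and 5 and 2 with Aβ40. Survival genes Bcl2a1, Cflar and Mdm2 and death-promoting genes Pmaip1, Hrk and Cycs were among the larger responses with both fibrils, while Birc2, Birc3, Bid, Bmf, Bcl2l11, Apaf1, Aifm1, Casp4, Fadd, Ripk1, Zbp1 and Gsdmd were among the smaller. Read by direction within each cell type, Zbp1, Gsdmd and Ripk1 were called higher in astrocytes and lower in microglia with both fibrils, Hrk the reverse, Birc3, Cflar, Bid, Casp4 and Casp12 were called higher in both, and Bmf lower in both. In astrocytes the calls of Ripk1 and Bmf were unstable. Ripk1 lost them in 13 of 18 alternatives with each fibril, and Bmf in 10 of 18 with Aβ42 and 11 of 18 with Aβ40.

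The untreated cells differed already. Control microglia had higher levels than control astrocytes for 21 of the 35 genes and lower levels for 7, where 34.2% of all genes were higher, 34.5% lower and 68.8% either. Zbp1 was higher in microglia by 6.02 ± 0.35, Bcl2a1, best known from haematopoietic cells, by 5.39 ± 0.20, Casp8 by 3.33 ± 0.20, Ripk3 by 3.3 ± 0.15, Bid by 3.23 ± 0.22, Bmf by 2.61 ± 0.23 and Xiap by 2.52 ± 0.25. Astrocytes had more Casp12, -3.98 ± 0.39, Hrk, -3.74 ± 0.28, and Bok, -3.31 ± 0.31, where negative values are higher in astrocytes.

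The fibrils were also compared with each other. In astrocytes edgeR called 0 of the 35 genes between Aβ42 and Aβ40, where 0.0855% of all genes were called. At an unadjusted p under 0.05 there were 3, for which the share of all genes is not given here. DESeq2 called 1, Bid, and 141 over all genes, against 10 by edgeR. The differences ran from -0.34 to 0.60.

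In microglia 3 genes were higher with Aβ42 than with Aβ40 and 3 were lower, against 11.3% and 9.01% of all genes. At 2-fold or more Bbc3 was the 1 gene higher and none was lower, against 2.33% and 1.29%, and at 5-fold there was none, as over all genes. Higher were Bbc3, 1.37 ± 0.24 (adjusted p = 0.00953), Bok, 0.87 ± 0.27 (adjusted p = 0.0425), and Mcl1, 0.51 ± 0.14 (adjusted p = 0.0311). Lower were Xiap, -0.99 ± 0.22 (adjusted p = 0.0188), Casp8, -0.66 ± 0.15 (adjusted p = 0.0203), and Apaf1, -0.48 ± 0.14 (adjusted p = 0.0361). Each of these calls was lost when any of several single libraries was left out. Mcl1 measured 128, 163 and 176 with Aβ42 and 102, 103 and 125 with Aβ40, and Apaf1 83.6, 56.1 and 62.4 and 98.9, 88.8 and 86.9. In both, as in Bbc3, Bok, Xiap and Casp8, Aβ42 replicate 1 was the Aβ42 library nearest to the Aβ40 level. Without it 9 genes were called higher and 8 lower, while the calls over all genes went from 2198 to 6004. Without Aβ42 replicate 2 or 3, or Aβ40 replicate 1 or 2, none was called in either direction, and without Aβ40 replicate 3 Bbc3 alone was called. Over all genes these refits called 99 to 154. Without control replicate 1 there were 1 and 2 calls, and without control replicate 2 or 3 there were 2 and 2. The calls over all genes without control replicate 1, 2 or 3 were 1048, 1612 and 1204. Aβ42 replicate 1 was close to the Aβ40 libraries in depth too, and the part of depth in these differences was not tested.

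Ratios of a survival to a death-promoting count within a library do not depend on scaling between libraries. The 4 pairs were chosen after the values were seen and are given as description, and since counts are not per length only their change is informative. Cflar to Casp8 in microglia was 0.652 to 0.799 in the control libraries, 5.48 to 7.29 with Aβ42 and 5.39 to 6.07 with Aβ40, a mean 8.31 and 7.62 times the control mean. In astrocytes it was 8.78 to 13.5 in the control libraries and 7.75 to 9.11 and 9.23 to 11.2 with the fibrils, 0.765 and 0.928 times control. The treated microglia were far outside the control spread, and the treated astrocytes overlapped it.

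Mcl1 to Pmaip1 went down in microglia, from 14.5 to 18.1 in the control libraries to 4.37 to 8.69 with Aβ42 and 3.01 to 4.27 with Aβ40, means of 0.417 and 0.217 times control. Xiap to Diablo rose in microglia with Aβ40, from 0.794 to 1 in the control libraries to 2.20 to 2.35. With Aβ42 it was 0.795 to 1.38 and overlapped control. Bcl2l1 to Bax in astrocytes was 2.06 to 3.39 in the control libraries, 1.66 to 2.00 with Aβ42 and, overlapping control, 1.89 to 2.19 with Aβ40, and in microglia 3.47 to 3.69 in the control libraries, 3.61 to 4.33 with Aβ42 and 4.25 to 4.87 with Aβ40. Within microglia the 4 ratios did not all move the same way.

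**Figure D4:**
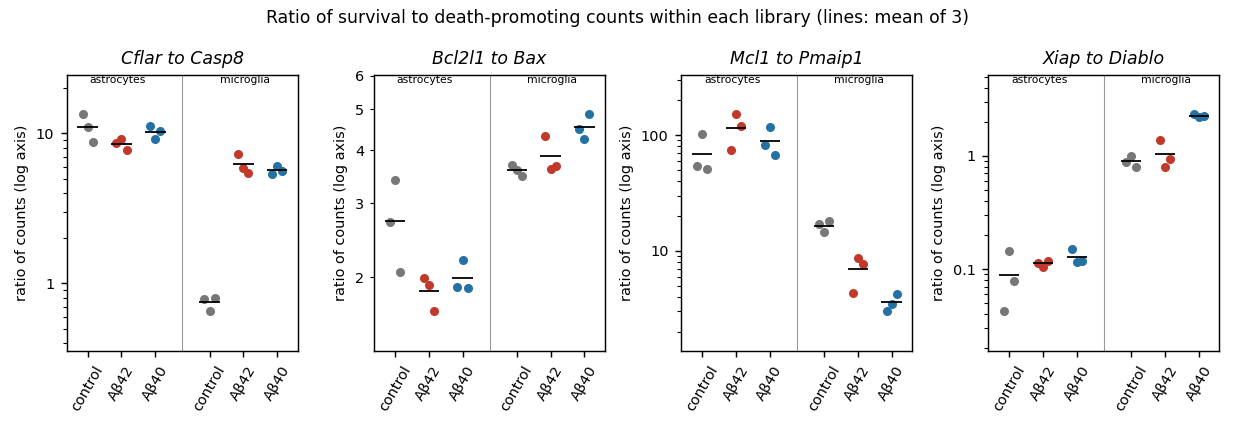
Ratio of the counts of a survival gene to those of a death-promoting gene (log axis) in every library of astrocytes (left of each panel) and microglia (right); points are libraries and lines are means of 3. Cflar to Casp8 rises from below 1 to above 5 in treated microglia, while Mcl1 to Pmaip1 falls there.

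Neighbouring genes of these pathways are counted below beside all tested genes, of which 16.5% rose and 20.4% fell in astrocytes with Aβ42 and 14.9% and 18.4% with Aβ40, and 27.1% and 26.6% in microglia with Aβ42 and 19.6% and 21.4% with Aβ40. Of 11 death receptors, ligands and adaptors tested in astrocytes 6 rose and 1 fell with each fibril, and of 10 tested in microglia 5 rose and 1 fell with Aβ42 and 4 rose and 2 fell with Aβ40. Tnf, the ligand tumour necrosis factor, rose by 3.53 ± 0.42 and 2.83 ± 0.42 in astrocytes, from at most 2.25 CPM, and by 3.25 ± 0.12 and 3.54 ± 0.12 in microglia, from at least 101 CPM. Its receptor gene Tnfrsf1a, which carries the death domain, was called in neither cell type, while Tnfrsf1b rose by 2.49 ± 0.22 and 2.12 ± 0.22 in astrocytes and by 2.73 ± 0.16 and 2.36 ± 0.16 in microglia. The death receptor gene Fas rose by 1.63 ± 0.19 and 1.75 ± 0.19 in astrocytes and by 3.43 ± 0.18 and 4.13 ± 0.18 in microglia. Tnfsf10, the ligand TRAIL, was at or under 3 counts in every control astrocyte library, 0 to 0.278 CPM, and was called higher with both fibrils, at 1.72 to 2.02 CPM with Aβ42 and 1.04 to 2.46 CPM with Aβ40. In microglia Tnfsf10 rose by 1.79 ± 0.35 and 2.87 ± 0.36. Tnfrsf21 (DR6) fell, at -1.7 ± 0.14 and -1.78 ± 0.14 and at -0.84 ± 0.12 and -0.72 ± 0.13, and the adaptor gene Tradd fell in microglia with Aβ40, -0.73 ± 0.20.

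Of 7 other caspase, pore and cleavage target genes tested, 2 rose in astrocytes with Aβ42 and 3 with Aβ40 and none fell, while in microglia 2 rose and 1 fell with Aβ42 and 1 rose and 2 fell with Aβ40. Of all genes, 16.5% rose and 20.4% fell in astrocytes with Aβ42, and 14.9% and 18.4% with Aβ40. The microglial shares were 27.1% and 26.6% with Aβ42, and 19.6% and 21.4% with Aβ40. Casp1, the inflammasome caspase, rose in astrocytes, 1.52 ± 0.16 and 1.44 ± 0.16, and was at -0.32 ± 0.16 and -0.2 ± 0.16 in microglia. Ninj1, needed for the final rupture of the membrane, rose in microglia by 1.57 ± 0.19 and 0.85 ± 0.19, and Parp1, a DNA repair enzyme cleaved by caspases, fell there, at -1.3 ± 0.11 and -1.39 ± 0.11.

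Of 12 genes known to respond to DNA damage, 1 rose and 3 fell in astrocytes with each fibril, and of 11 tested in microglia 5 rose and 1 fell with Aβ42 and 4 rose and 1 fell with Aβ40, so that calls went both ways in each cell type. Among all genes, 16.5% rose and 20.4% fell in astrocytes with Aβ42, and 14.9% and 18.4% with Aβ40. The microglial shares were 27.1% and 26.6% with Aβ42, and 19.6% and 21.4% with Aβ40. Cdkn1a, the cell cycle inhibitor p21, rose in microglia by 1.75 ± 0.17 and 1.37 ± 0.17 and was not called in astrocytes, 0.45 ± 0.21 and 0.38 ± 0.21. Of the listed genes of this kind Phlda3 rose most in microglia with Aβ42, 2.25 ± 0.27, and Gadd45a with Aβ40, 1.38 ± 0.12, while Sesn1 fell, at -2.13 ± 0.14 and -2.35 ± 0.15. In astrocytes the widest changes were those of Aen, a nuclease gene, 1.07 ± 0.13 and 0.85 ± 0.13, and Perp, a membrane protein gene, -2.78 ± 0.30 and -2.88 ± 0.29.

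Of 8 genes of the death arm of endoplasmic reticulum stress, 6 rose in astrocytes with each fibril, and none fell with Aβ42 and 1 with Aβ40. Of all genes, 16.5% rose and 20.4% fell there with Aβ42, and 14.9% and 18.4% with Aβ40. In microglia 5 of the 8 rose and 2 fell with Aβ42, against 27.1% and 26.6% of all genes. With Aβ40, 4 rose and 2 fell, against 19.6% and 21.4%. Ddit3, which encodes the transcription factor CHOP, rose by 2.12 ± 0.13 and 1.81 ± 0.13 in astrocytes and by 1.32 ± 0.14 and 1.09 ± 0.14 in microglia. Trib3, a CHOP target, rose by 1.83 ± 0.43 and 2.0 ± 0.42 and by 3.45 ± 0.17 and 2.8 ± 0.18. The sensor genes behaved otherwise: Ern1 (IRE1) fell in microglia with Aβ42, -0.96 ± 0.18, and Eif2ak3 (PERK) fell with Aβ40 in astrocytes, -0.39 ± 0.14, and with both fibrils in microglia, -0.36 ± 0.11 and -0.47 ± 0.12, as Atf3 did with Aβ40, -0.47 ± 0.16.

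Of 18 tested genes that control Ripk1 by ubiquitin or phosphorylation, 10 rose and 1 fell in astrocytes with Aβ42, against 16.5% and 20.4% of all genes. With Aβ40, 9 rose and 1 fell, against 14.9% and 18.4%. In microglia 8 rose and 6 fell with Aβ42, and 6 rose and 4 fell with Aβ40, where 27.1% and 26.6%, and 19.6% and 21.4%, of all genes did. Tnfaip3, the A20 gene, was not analysed here. Traf1, an adaptor that binds the cIAPs, rose by 3.52 ± 0.25 and 2.89 ± 0.25 in astrocytes and by 3.64 ± 0.18 and 3.14 ± 0.18 in microglia. Tab2, which brings the kinase TAK1 to ubiquitin chains, fell in astrocytes, at -0.93 ± 0.19 and -0.78 ± 0.19. Otulin, which removes linear ubiquitin chains, fell in microglia, at -1.15 ± 0.12 and -1.46 ± 0.13 and was not called in astrocytes.

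Of 13 other inhibitors of apoptosis and of mitochondrial release 4 rose and 1 fell in astrocytes with each fibril. Of all genes, 16.5% rose and 20.4% fell there with Aβ42, and 14.9% and 18.4% with Aβ40. In microglia 7 of the 13 rose and 4 fell with Aβ42, against 27.1% and 26.6% of all genes. With Aβ40, 5 rose and 2 fell, against 19.6% and 21.4%. Ier3, an immediate early survival gene, rose by 2.61 ± 0.20 and 2.15 ± 0.20 in astrocytes and by 3.82 ± 0.14 and 3.7 ± 0.14 in microglia. Birc5 (survivin, which is made in dividing cells) fell, at -2.54 ± 0.23 and -2.12 ± 0.22 in astrocytes and at -0.98 ± 0.22 in microglia with Aβ42, while with Aβ40 the largest fall there was in Bag3, a chaperone partner, -0.77 ± 0.12.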

How the data were processed

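Poly(A) RNA was sequenced from 9 libraries each of cultured rat astrocytes and microglia, 3 per group. According to the study's methods, the authors aligned reads to rn5 with STAR in a BaseSpace application and named Salmon for quantification and DESeq2 for gene counts, with versions, annotation and strand setting not given in the sources used here. The authors deposited 1 table of raw counts per library, as whole numbers that are not normalized. Reads on no gene or on several genes were left out of library sizes and tests, and made up 26.0% to 34.2% of reads in astrocytes and 21.7% to 24.5% in microglia. No 2 libraries were identical.

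From these counts, TMM scaling, filterByExpr and glmQLFit with glmQLFTest (edgeR 4.0.16, limma 3.58.1, R 4.3.3) were run on the 9 libraries of each cell type, without covariates, testing 11690 genes in astrocytes and 10837 in microglia. A fit of all 18 libraries over 16704 shared symbols, of which 11581 were tested, gave the comparisons between cell types. P-values were adjusted by Benjamini-Hochberg over all tested genes. The code was tested on simulated data. Standard errors are the fold change divided by the root of the F statistic. The gene lists were chosen with earlier results of these data known. Every listed gene was named, those called at 2-fold or more were given in every library, and of the lists of neighbouring genes those with the largest called change in each direction were named, with tumour necrosis factor and its receptors, Casp1, Cdkn1a, Ddit3 and Tnfaip3. Some genes of these lists are not reported here. Alternatives were other scalings, filters, DESeq2 1.42.0, fold thresholds, a replicate block, the compared groups alone and leaving out libraries. Promoters came from RefSeq (GRCr8), and since the files use rn5 no other coordinates are given.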

Additional observations from a re-analysis of the deposited data

Results flagged for a closer look

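The change from control differed between microglia and astrocytes, by edgeR's test of the difference itself in the fit of all 18 libraries, with an adjusted p under 0.05, for the following genes. With Aβ42 fibrils the response in microglia minus that in astrocytes, on the log2 scale, was above 0 for 8 genes: Hrk 6.02, Pmaip1 2.61, Cflar 1.83, Bcl2a1 0.88, Bcl2l1 0.71, Mdm2 0.70, Cycs 0.69 and Diablo 0.61. It was below 0 for 14 genes with Aβ42: Zbp1 -6.95, Birc2 -2.20, Bmf -1.97, Bid -1.95, Gsdmd -1.85, Casp8 -1.57, Casp4 -1.51, Birc3 -1.43, Fadd -1.21, Apaf1 -1.15, Bcl2 -1.04, Bcl2l11 -1.02, Ripk1 -0.92 and Aifm1 -0.64. With Aβ40 fibrils the response in microglia minus that in astrocytes, on the log2 scale, was above 0 for 9 genes: Hrk 5.25, Pmaip1 2.85, Cflar 2.42, Bcl2a1 1.42, Cycs 1.11, Xiap 1.10, Mdm2 0.70, Ripk3 0.63 and Bcl2l2 0.51. It was below 0 for 13 genes with Aβ40: Zbp1 -6.90, Birc2 -2.66, Bmf -2.42, Gsdmd -1.89, Bid -1.68, Casp4 -1.47, Fadd -1.42, Casp9 -1.35, Birc3 -1.32, Bcl2l11 -0.72, Apaf1 -0.71, Ripk1 -0.71 and Aifm1 -0.49. A value above 0 means a larger rise, or a smaller fall, in microglia. The direction within each cell type was opposite, and called in both, for Zbp1, Gsdmd, Ripk1 and Hrk with both fibrils and for Bcl2l11 and Apaf1 with Aβ42 and Casp9 with Aβ40. Several of these astrocyte calls were unstable. Of 18 alternatives, Ripk1 lost its call in 13 with each fibril, Apaf1 in 12, Bcl2l11 in 9 and Casp9 in 6. In microglia the Aβ40 calls of Casp9 and Ripk1 were lost in 6 and 5 of 17. Among the differences between the cell types, Bcl2 with Aβ42 was the least stable, called in 4 of 23 alternatives, and Bcl2l2 with Aβ40 was called in 11 of 24.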

How the results depend on the processing

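Of 315 gene comparisons, 168 were called, 126 of them in every alternative in which they were tested, and no called change reversed its sign. Of the 147 not called, 53 changed sign and 47 were called in some alternative. Requiring 2-fold (or 5-fold) left 9 (4) higher and 1 (1) lower genes in astrocytes with Aβ42, 9 (4) and 1 (1) with Aβ40, 8 (4) and 3 (2) in microglia with Aβ42, 7 (4) and 2 (2) with Aβ40, and 1 (0) and 0 (0) between fibrils in microglia. Fitting the compared groups alone gave 10 higher and 1 lower in astrocytes with Aβ42, 1 lower with Aβ40, 1 higher between fibrils, and 0 and 0 between fibrils in microglia. Over all genes the fits of the 2 fibril groups alone called 265 in astrocytes and 106 in microglia. Between fibrils in astrocytes DESeq2 called 1 gene higher, as did the fit without the 2 libraries named by another scheme (control replicate 2 and Aβ42 replicate 3). Over all genes these called 141 and 120, against 10 in the main fit. With at least 10 counts in every library 1 gene was lower in astrocytes with Aβ40. Same-numbered libraries did not consistently deviate together, with r across genes of -0.53 to 0.36 in astrocytes and -0.19 to 0.22 in microglia. Such deviations, taken within groups of 3, cannot exclude that the numbers pair the samples. Some differently numbered astrocyte libraries deviated together: control 2 and Aβ42 3, the libraries named by another scheme (r = 0.53), and Aβ40 1 with each of them (0.49 and 0.51), as did Aβ42 1 and Aβ40 2 (0.49). No fit used such a grouping as a block, and its part in the results was not tested. With a replicate block 1 gene was lower in astrocytes with each fibril and 1 was higher between fibrils in microglia, 21 of the 168 calls were lost, and between fibrils the calls over all genes went from 2198 to 752 in microglia and from 10 to 0 in astrocytes. Leaving out 1 library at a time gave 10 to 20 higher (10 without Aβ42 replicate 2) and 1 to 3 lower genes in astrocytes with Aβ42 and 1 to 2 lower with Aβ40. It gave 0 to 1 higher between fibrils in astrocytes, 5 to 10 lower in microglia with Aβ40 (5 without control replicate 1, control replicate 3 or Aβ40 replicate 3), and 0 to 9 higher and 0 to 8 lower between fibrils in microglia. For comparisons with control, the share of all genes called in these refits, in the compared groups alone and with 10 counts is not given here. Between fibrils, leaving out 1 library gave 0 to 222 calls over all genes in astrocytes and 99 to 6004 in microglia. The medians in astrocytes then ran from 0.42 to 0.55 (death-promoting, Aβ42), 0.29 to 0.45 (survival, Aβ42) and 0.38 to 0.65 (death-promoting, Aβ40), and in microglia from 0.77 to 0.95 (survival, Aβ42) and 0.0042 to 0.22 (death-promoting, Aβ40). With library totals the astrocyte Aβ42 medians were 0.49 (death-promoting) and 0.27 (survival). With the upper quartile they were 0.44 and 0.22, and 0.34 for death-promoting genes with Aβ40. Without Casp8, Ripk1 and Mdm2, which act on both sides, the survival median with Aβ42 was 0.35. The upper quartile moved the median of all genes to -0.105 in astrocytes with Aβ42, to 0.212 and 0.174 for the differences between cell types with Aβ42 and Aβ40, and to -0.181 for the control cells, which library totals moved to -0.281. The causes of these shifts were not tested. Depth limits the scarce genes, since 3 counts stood for up to 1.38 CPM.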
